A study of Homo sapiens with 6 samples.

Results

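The bone morphogenetic protein (BMP) pathway and the ID genes were followed in H1975 cells by reading 10 genes, ID1, ID2, ID3, ID4, BMP2, BMP4, SMAD6, SMAD7, SMAD9 and BAMBI, out of the RNA-sequencing table by their symbols, which is 10 of its 27216 rows. H1975 is a human non-small cell lung cancer line that depends on a mutant EGFR and is labelled WT for genotype. Adapted cells (3 samples) were those still attached after 72 h of Osimertinib (Osi, 1000 nM), an inhibitor of the EGFR tyrosine kinase, once apoptotic cells had been washed away, and parental cells (3 samples) were taken at 0 h. DMSO is the name of the parental columns in the table, and since no source says whether such cells received DMSO, or for how long, treatment and time in culture cannot be told apart. The labels describe RNase R digestion, which removes linear RNA ahead of circular RNA sequencing, whereas the study's methods name total RNA only, so linear and circular transcripts of a gene cannot be told apart here. Nothing says that the 3 samples of a group came from separate cultures, and the p-values then measure only the spread between these samples, which may be technical.

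BMPs are secreted dimers that bring together type I and type II serine/threonine kinase receptors. The receptors phosphorylate SMAD1, SMAD5 and SMAD9, which join SMAD4 and enter the nucleus, where ID1, ID2 and ID3 are among the genes they are best known for switching on. ID proteins are helix-loop-helix factors without a DNA-binding region, and they hold E proteins away from DNA and so restrain differentiation. The pathway carries its own brakes, since SMAD6, SMAD7 and the decoy receptor BAMBI are induced by the signal and damp it. In lung, BMP4 is known for its part in the growth of the embryonic airway tips, and ID1 for its presence in lung tumours.

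Values are read as log2(FPKM + 1), where FPKM is the number of fragments of a gene corrected for its length and for library size. The table does not name its scale. The log2 of a number plus 1 was taken from the values, which do not settle that this number is FPKM. Read counts were not used here, and the depth and the counting error of each sample are unknown. Parental samples correlated with each other at 0.997 across rows. Adapted replicate 1 correlated at 0.991 with the other adapted samples, against 0.996 between those, and was also nearer to the parental samples, at 0.973 against 0.963 to 0.964. These correlations run across genes, which are not independent replicates. The epithelial origin of the line was seen in all 6 markers tested, whose summed FPKM ran from 3710 to 3742 in parental and from 3491 to 3788 in adapted samples. Opposite changes offset each other in this sum. Mean FPKM of KRT7 went from 671 to 1422, while KRT8 went from 904 to 748, KRT18 from 853 to 579 and KRT19 from 936 to 556. EPCAM went from 193 to 175 and CDH1 from 175 to 179. Sums were 3.04 to 3.17 and 8.60 to 9.33 for 6 fibroblast markers, 1.13 to 1.88 and 1.49 to 3.50 for 4 endothelial markers, and 74.3 to 76.8 and 14.7 to 29.6 for 5 leukocyte markers. The fibroblast sum was mostly COL1A1, at a mean FPKM of 3.06 in parental and 7.86 in adapted samples. The leukocyte sum was mostly CD68, a lysosomal protein gene that many cells use, while CD3E was listed at 0 in all 6 samples and PTPRC in the 3 parental samples. The part of these markers in the results was not tested. In bulk RNA, fewer cells of a type and less RNA per cell cannot be told apart.

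BMP2, ID1 and BAMBI were lower and BMP4 and SMAD7 were higher in adapted than in parental cells, whereas ID2, ID3, ID4 and SMAD6 did not pass the test. Of the 10 genes, 9 passed the filter of a mean log2(FPKM + 1) of at least 1, and SMAD9 did not. With limma and a Benjamini-Hochberg adjusted p under 0.05, 2 of the 9 were called higher and 3 lower. Over all 12656 rows tested, 56.9% were called, 30.7% as higher and 26.2% as lower, so the share of called genes among the 9 (55.6%) was near that of the whole table. Past an absolute log2 fold change of 1, 4 of the 9 genes were called (BMP2, BMP4, ID1 and BAMBI), against 10.5% of all rows tested. BAMBI lay at this limit, at -1.0015. It fell short of it in some alternatives, such as -0.99 with equal sums and -0.86 without adapted replicate 2. In 5 of the 9 genes, the same 5 that were called, the parental and adapted values did not overlap, and this held for 66.3% of all rows tested. The median log2 fold change of the 9 genes was -0.093 and that of all rows 0.028. Fold changes on the log2(FPKM + 1) scale understate the change of low genes, and an exact permutation test of 3 samples against 3 cannot give a p below 0.1.

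**Figure D1:**
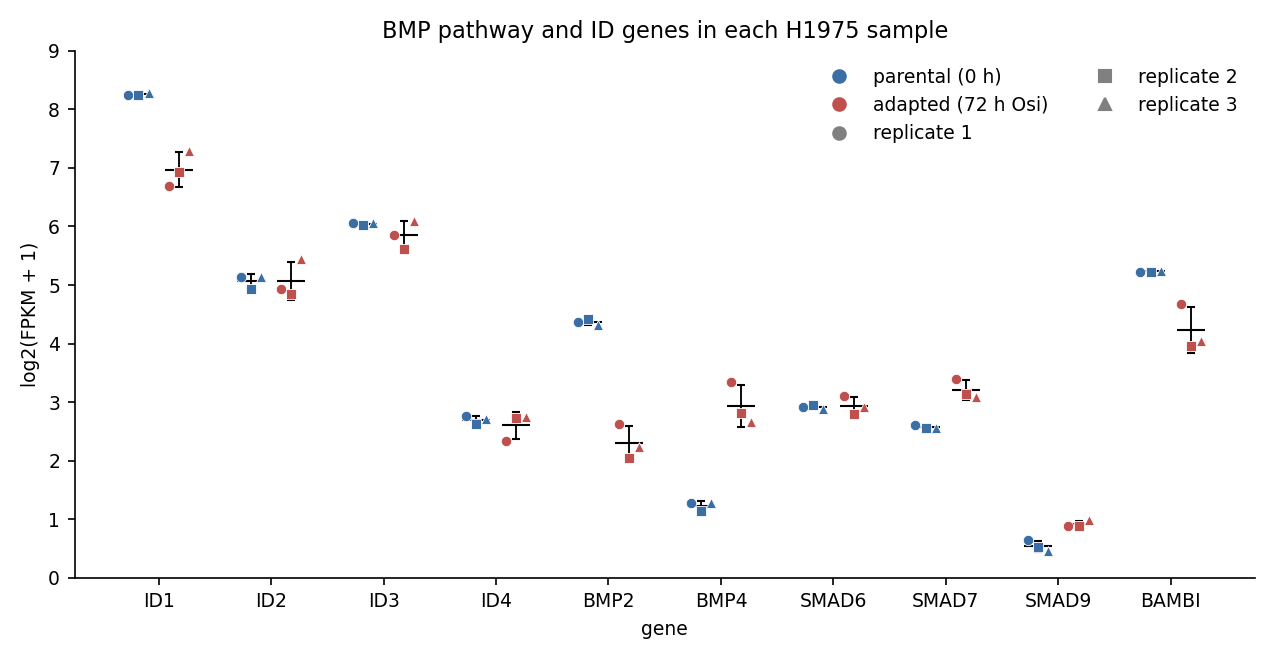
Log2(FPKM + 1) of each of the 10 genes (x axis) in the 3 parental (blue) and 3 adapted (red) H1975 samples, with the replicate shown by the symbol and the mean ± SD of each group as black bars. The parental values of ID1 lie near 8.26 and the adapted ones between 6.70 and 7.28, BMP2 and BMP4 move in opposite directions, and the adapted samples are spread more widely than the parental ones in every gene except SMAD9.

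The ID1, ID3 and BAMBI promoters are shown as examples of known direct targets of BMP SMADs. ID1 and BAMBI were lower in adapted cells and ID3 was not called. Windows of ID2, SMAD6 and SMAD7, also induced by this signal, are not printed. Each sequence is the 250 bases before the annotated start in RefSeq (GRCh38.p14), written 5′ to 3′ on the strand of the gene. These lie at chr20:31605039-31605288 (plus strand) for ID1, at chr1:23559502-23559751 (minus strand) for ID3 and at chr10:28677271-28677520 (plus strand) for BAMBI. Capitals mark matches, on either strand, to GGCGCC and GGAGCC (GC-rich sites of BMP-activated SMADs), GTCT (the SMAD box), TATAA (the core of a TATA box) and CCAAT.
ID1: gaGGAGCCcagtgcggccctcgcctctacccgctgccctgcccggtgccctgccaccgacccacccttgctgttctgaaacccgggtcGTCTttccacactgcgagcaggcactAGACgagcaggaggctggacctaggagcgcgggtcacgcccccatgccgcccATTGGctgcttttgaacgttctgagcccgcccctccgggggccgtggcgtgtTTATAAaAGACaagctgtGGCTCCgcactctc
ID3: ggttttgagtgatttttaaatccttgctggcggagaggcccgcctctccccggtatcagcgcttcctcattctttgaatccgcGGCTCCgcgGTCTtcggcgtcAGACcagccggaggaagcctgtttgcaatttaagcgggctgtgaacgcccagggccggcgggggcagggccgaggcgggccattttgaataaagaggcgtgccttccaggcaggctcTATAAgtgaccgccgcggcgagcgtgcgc
BAMBI: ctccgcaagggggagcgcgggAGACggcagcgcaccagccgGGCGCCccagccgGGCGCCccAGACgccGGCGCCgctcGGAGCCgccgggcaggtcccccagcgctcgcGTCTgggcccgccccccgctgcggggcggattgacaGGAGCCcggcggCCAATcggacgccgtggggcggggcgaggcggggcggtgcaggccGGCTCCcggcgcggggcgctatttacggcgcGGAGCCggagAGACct
BAMBI held 3 matches to GGCGCC and 4 to GGAGCC, and ID1 and ID3 held none of the former and 2 and 1 of the latter. The windows differ in GC content, at 81.2% for BAMBI, 66.0% for ID1 and 62.0% for ID3. The counts of matches were not adjusted for this. Among the genes not printed, GGAGCC was matched 3 times in SMAD6 and 0 times in ID2, neither of which was called. In SMAD7, called higher, it was matched 0, 0 and 1 times in its windows. GTCT was matched 3 times in ID1, 2 times in ID3 and 4 times in BAMBI. The TATAA matches lie 31 and 32 bases before the start of ID1, as overlapping matches on opposite strands, and 29 bases before that of ID3, and BAMBI held none. CCAAT was matched 84 bases before the start of ID1 and 92 bases before that of BAMBI, and not in ID3. Among 35116 promoter windows of the same length, 16.4% held GGCGCC, 30.6% GGAGCC, 77.5% GTCT, 18.9% TATAA and 32.0% CCAAT. A match describes letters in this window and is not a measured binding site. Sequence farther from the start was not searched, and the elements through which BMP SMADs act on these genes may lie there. Windows were found for 9 of the 10 genes, all but BMP2.

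The ligand BMP2 (RefSeq position on GRCh38, as for the other genes, chr20:6767686-6780246, plus strand) drives bone formation and is made by many epithelia. Its log2(FPKM + 1) was 4.37, 4.42 and 4.31 in the parental samples and 2.62, 2.05 and 2.24 in the adapted samples. The groups did not overlap, and adapted replicate 1 was the highest of its group. Mean FPKM was 19.6 ± 0.74 in parental and 4.0 ± 1.04 in adapted samples (SD, n = 3 each), which is 4.91-fold lower. The log2 fold change was -2.07 (SE 0.14, 95% interval -2.39 to -1.74, limma, adjusted p = 3.20e-05), which ranked 120 of 12656 from the most lowered.

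BMP4 (chr14:53949736-53956891, minus strand), a ligand of the same subgroup, went the other way. It was at 1.28, 1.14 and 1.27 on the log2 scale in the parental samples and at 3.35, 2.81 and 2.65 in the adapted samples. Every adapted value was above every parental value, with adapted replicate 1 the highest. Mean FPKM was 1.35 ± 0.13 in parental and 6.83 ± 2.06 in adapted samples (SD, n = 3 each), which is 5.06-fold higher. The log2 fold change of 1.71 (SE 0.17, 95% interval 1.3 to 2.11, limma, adjusted p = 1.80e-04) ranked 192 from the most raised.

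The order of BMP2 and BMP4 was exchanged. FPKM of BMP2 was 13.8, 16.9 and 13.4 times that of BMP4 in the parental samples, and FPKM of BMP4 was 1.78, 1.93 and 1.42 times that of BMP2 in the adapted samples. The sum of BMP2 and BMP4 went from 21.2, 21.5 and 20.3 FPKM in the parental samples to 14.3, 9.16 and 9.0 FPKM in the adapted samples. The sums of the groups did not overlap, and the sum of adapted replicate 1 stood above those of the other adapted samples.

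Of 12 other BMP and GDF ligands, 2 passed the filter. BMP8B rose from 1.17 ± 0.13 to 2.78 ± 0.28 on the log2 scale (SD, n = 3 each, limma, adjusted p = 1.23e-04), and its near-identical neighbour BMP8A was at 0.80 or lower in every sample, so fragments of this pair may have been divided between them. BMP3 had a log2 fold change of 0.0011 (95% interval -0.25 to 0.25, adjusted p = 0.994). BMP7, BMP10, BMP15, GDF2 and GDF6 were listed at 0 in all 6 samples.

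On the receptor side, 9 of 12 receptors and co-receptors were tested, of which 4 rose and 1 fell. The share called, 55.6%, was near the 56.9% of all rows tested. The type II receptor BMPR2 was at 3.04, 2.91 and 2.87 in the parental and 3.62, 3.89 and 3.79 in the adapted samples, a log2 fold change of 0.82 (SE 0.090, adjusted p = 2.52e-04). RGMB, a co-receptor that binds BMP2 and BMP4, rose by 0.51 (adjusted p = 0.00116) and the type I receptor ACVR1 by 0.38 (adjusted p = 0.00446). The type I receptor BMPR1A rose by 0.33 (adjusted p = 0.0354). ENG, or endoglin, a co-receptor best known from endothelium, fell from 3.43 ± 0.066 to 2.19 ± 0.33 (SD, n = 3 each, adjusted p = 4.74e-04). ACVRL1, the type I receptor to which endoglin lends its ligands, was below the filter. Chosen after its values were seen, it was at 1.53, 1.52 and 1.59 in the parental and 0.29, 0.12 and 0.20 in the adapted samples, without overlap. BMPR1B, ACVR2A, ACVR2B and NEO1 were not called, with log2 fold changes of -0.016, 0.083, -0.048 and -0.47. Of the endothelial markers, PECAM1 went from a mean of 1.22 to 0.089, CDH5 from 0.21 to 1.71 and VWF from 0.029 to 0.24, and KDR was at 0.15 or lower, and their part in the change of ENG was not tested.

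Among 17 extracellular antagonists and modulators, 5 were tested, 3 rose and 1 fell, which is 80.0% of only 5 genes, beside 56.9% of all rows tested. FSTL3, a secreted follistatin-like protein that binds activins and some BMPs, had the largest change of the 40 other pathway genes tested. It was at 1.80, 1.81 and 1.69 in the parental and 5.37, 5.25 and 5.09 in the adapted samples, a log2 fold change of 3.47 (SE 0.086, limma, adjusted p = 7.66e-07). CRIM1, a membrane protein that tethers BMPs, rose by 1.15 (adjusted p = 4.10e-05) and FSTL1 by 0.89 (adjusted p = 2.95e-05). NBL1, a secreted antagonist of the DAN family, fell by 0.55 (adjusted p = 0.00210). Below the filter, and chosen after their values were seen, the antagonist noggin (NOG) was at 0.078, 0.043 and 0.030 in the parental and 2.50, 1.35 and 1.68 in the adapted samples, and follistatin (FST) at 0.11, 0.091 and 0.17 against 0.91, 1.13 and 1.02. Neither overlapped between groups. CHRDL1, CHRDL2 and CER1 were listed at 0 in all samples, and GREM1 was at 0.021 or lower.

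SMAD9 (chr13:36844831-36920854, minus strand), the least abundant of the BMP receptor SMADs here, was at 0.64, 0.53 and 0.45 in the parental and 0.89, 0.89 and 0.99 in the adapted samples. The groups did not overlap, although all 6 values lay under the filter. Mean FPKM was 0.457 ± 0.098 and 0.896 ± 0.075 (SD, n = 3 each). Without the filter its log2 fold change was 0.38 (limma, adjusted p = 0.0127), and the adjusted p was 0.0127 to 0.0783 over the alternatives. The more abundant SMAD1 and SMAD5, which do the same work, had log2 fold changes of 0.19 (adjusted p = 0.0574) and -0.14 (adjusted p = 0.176), and their common partner SMAD4 one of 0.19 (adjusted p = 0.0935). None of these was called, although the values of SMAD1 and of SMAD4 did not overlap between groups. Those of SMAD5 did. Over all rows tested, 66.3% did not overlap.

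The inhibitory SMADs were not alike. SMAD7 (chr18:48919853-48950965, minus strand), which blocks type I receptors of both BMP and TGF-beta signalling, was at 2.61, 2.56 and 2.56 in the parental and 3.39, 3.14 and 3.08 in the adapted samples. Its groups did not overlap, the log2 fold change was 0.63 (SE 0.094, 95% interval 0.41 to 0.85, adjusted p = 0.00108), and mean FPKM went from 4.96 ± 0.11 to 8.26 ± 1.09 (SD, n = 3 each). SMAD6 (chr15:66702236-66782849, plus strand), which acts mainly on the BMP branch, was at 2.92, 2.95 and 2.88 against 3.10, 2.80 and 2.91. Its groups overlapped, with a log2 fold change of 0.021 (95% interval -0.19 to 0.23, adjusted p = 0.858). SMAD7 stood below SMAD6 in the parental samples, at 0.771, 0.731 and 0.765 of its FPKM, and above it in the adapted samples, at 1.25, 1.31 and 1.14.

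BAMBI (chr10:28677521-28682932, plus strand), a membrane protein that resembles a type I receptor without its kinase, was at 5.22, 5.23 and 5.24 in the parental and 4.68, 3.95 and 4.05 in the adapted samples. The parental values were nearly equal, all adapted values lay below them, and adapted replicate 1 was the highest of its group. Mean FPKM was 36.6 ± 0.28 in parental and 18.3 ± 5.6 in adapted samples (SD, n = 3 each), which is 2.00-fold lower. The log2 fold change was -1.0 (SE 0.18, 95% interval -1.42 to -0.59, limma, adjusted p = 0.00246).

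Of the 15 other SMADs and regulators of SMADs, 14 were tested, 2 rose and 2 fell, all by less than 1 on the log2 scale. The share called was 28.6%, beside 56.9% of all rows tested. The ubiquitin ligase SMURF2 rose by 0.55 (adjusted p = 8.55e-04) and the co-repressor SKIL by 0.46 (adjusted p = 0.0135). SMURF1, the related ligase that marks BMP SMADs for degradation, fell by 0.28 (adjusted p = 0.00419) and TOB1, which restrains BMP SMADs, by 0.26 (adjusted p = 0.0145). ZNF423 was listed at 0 in all samples.

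ID1 (chr20:31605289-31606510, plus strand), the classical early target of BMP SMADs, was the most abundant of the 10 genes in both groups. It was at 8.25, 8.24 and 8.27 in the parental and 6.70, 6.93 and 7.28 in the adapted samples. The parental samples agree within 0.028 on the log2 scale, all adapted values lie below them, and adapted replicate 3 was the highest of its group. Mean FPKM was 305 ± 3.07 in parental and 126 ± 26.3 in adapted samples (SD, n = 3 each), which is 2.41-fold lower. The log2 fold change was -1.28 (SE 0.14, 95% interval -1.61 to -0.96, limma, adjusted p = 2.33e-04), at rank 420 from the most lowered.

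ID3 (chr1:23557926-23559501, minus strand) was at 6.05, 6.02 and 6.05 in the parental and 5.86, 5.62 and 6.10 in the adapted samples. Replicates 1 and 2 of the adapted group lay below all parental values and replicate 3 above them. Its log2 fold change was -0.18 (95% interval -0.45 to 0.084, adjusted p = 0.204), and it was called lower, at -0.30 (adjusted p = 0.0236), in 1 of the alternatives run, the fit without adapted replicate 3.

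ID2 (chr2:8682056-8684461, plus strand) was at 5.13, 4.93 and 5.14 against 4.93, 4.85 and 5.44, and the groups overlapped. Its log2 fold change of 0.0073 had a 95% interval of -0.36 to 0.37 (adjusted p = 0.972). ID4 (chr6:19837370-19842197, plus strand), the least abundant of the ID genes here, was at 2.76, 2.63 and 2.71 against 2.34, 2.73 and 2.75. Adapted replicate 1 alone was under the parental range, and the log2 fold change was -0.093 (95% interval -0.38 to 0.19, adjusted p = 0.538). In GENCODE v29 the antisense genes ID2-AS1 and AL022068.1 overlap ID2 and ID4 on the opposite strand and have no row in the table, and whether fragments were counted by strand is not given in the sources used here.

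FPKM is scaled to length, and on that basis the ID genes were set against each other. Such comparisons between genes, also those of BMP2 with BMP4 and of SMAD7 with SMAD6, rest on the inferred scale. They also take in linear and circular transcripts, which cannot be told apart here. Their summed FPKM was 409, 401 and 413 in the parental samples and 193, 203 and 270 in the adapted samples. The sums of the groups did not overlap. ID1 supplied 74.3%, 75.4% and 74.6% of this sum in the parental and 53.2%, 59.8% and 57.3% in the adapted samples. The share of ID3 went from between 15.8% and 16.0% to between 23.8% and 29.5%, that of ID2 from between 7.37% and 8.31% to between 13.71% and 15.7%, and that of ID4 from between 1.29% and 1.41% to between 2.1% and 2.77%. Shares of a common sum are tied to each other, and these were not tested.

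**Figure D2:**
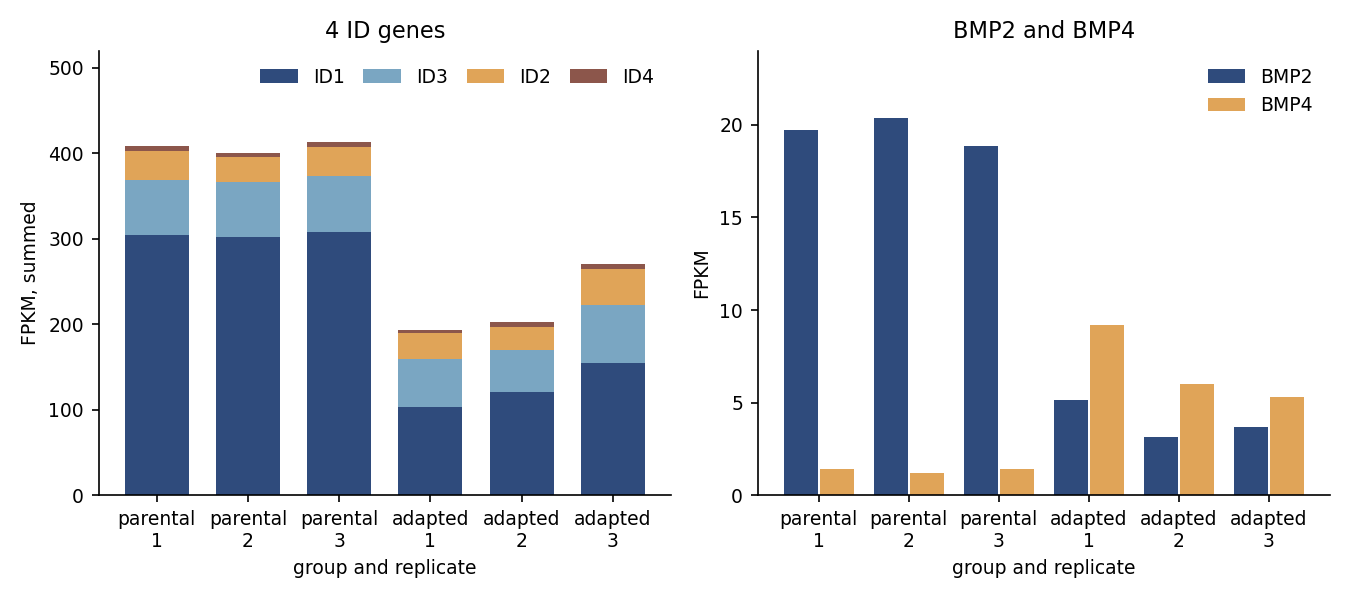
Left, FPKM of ID1, ID3, ID2 and ID4 stacked for each sample, and right, FPKM of BMP2 and BMP4 side by side for each sample, with group and replicate on the x axes. The ID sum is 401 to 413 in parental and 193 to 270 in adapted samples, with ID1 the larger part throughout, and BMP2 is above BMP4 in the 3 parental samples and below it in the 3 adapted samples.

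By mean FPKM the parental order was ID1, ID3, BAMBI, ID2, BMP2, SMAD6, ID4, SMAD7, BMP4 and SMAD9, and no neighbours in this order overlapped in their sample values. In adapted cells it was ID1, ID3, ID2, BAMBI, SMAD7, BMP4, SMAD6, ID4, BMP2 and SMAD9. There the sample values of SMAD7 and BMP4, BMP4 and SMAD6, and ID4 and BMP2 overlapped. Within each adapted sample SMAD7 was above BMP4, at 9.51, 7.82 and 7.46 FPKM against 9.17, 6.03 and 5.29. The order of BMP4 and SMAD6, and of ID4 and BMP2, differed between the adapted samples. BMP2 moved from the fifth to the ninth place and BMP4 from the ninth to the sixth.

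The adapted samples differed among themselves by 0.30 to 0.73 on the log2 scale in 9 genes, against 0.019 to 0.20 among the parental samples. In SMAD9 the adapted range was 0.099 and the parental range 0.19. Adapted replicate 3 was the highest of its group in ID1, ID2, ID3, ID4 and SMAD9, and adapted replicate 1 in BMP2, BMP4, SMAD6, SMAD7 and BAMBI. Without adapted replicate 1, the sample that correlated least with its group, the log2 fold changes of the called genes were -2.23 for BMP2, 1.5 for BMP4, 0.54 for SMAD7, -1.23 for BAMBI and -1.15 for ID1, and the same 5 genes were called.

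**Figure D3:**
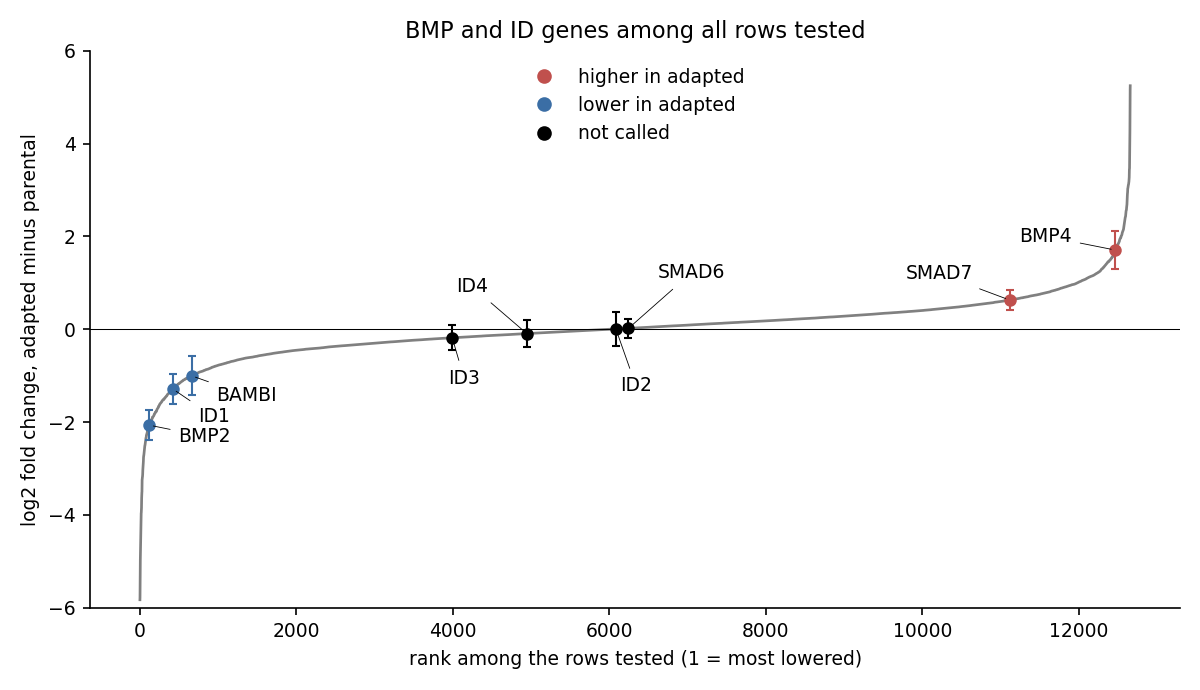
Log2 fold change of all 12656 rows tested (grey line), ordered from the most lowered to the most raised, with the 9 tested genes marked in red (higher), blue (lower) or black (not called) and bars for their 95% intervals. BMP2, ID1 and BAMBI lie at ranks 120, 420 and 660 from the lowered end, BMP4 and SMAD7 at 192 and 1543 from the raised end, and the other 4 genes near 0.

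Of 16 other genes that BMP signalling is known to regulate in some tissue, 8 were tested, 3 rose and 2 fell. The share called was 62.5%, beside 56.9% of all rows tested. HES1, a basic helix-loop-helix repressor, was at 4.04, 4.05 and 4.22 in the parental and 2.72, 2.36 and 2.55 in the adapted samples, a log2 fold change of -1.56 (adjusted p = 3.38e-05). GATA2 fell by 0.58 (adjusted p = 0.00197). SOX9, a factor of cartilage and distal lung epithelium, rose by 0.93 (adjusted p = 2.68e-04), TBX3 by 0.90 (adjusted p = 1.41e-04) and GATA3 by 0.45 (adjusted p = 0.00473), and these 3 genes passed the filter through their adapted values. ATOH8, a target described alongside ID1 in liver and endothelium, was at 1.77, 1.63 and 1.54 against 2.01, 0.87 and 0.93, and was not called (adjusted p = 0.297). HAMP, the hepcidin gene that BMP controls in liver, was listed at 0 in all samples.

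Of the E proteins that ID proteins bind, TCF3 and TCF12 were tested and neither was called. TCF3 was at 4.38, 4.39 and 4.38 in the parental and 4.51, 4.43 and 4.56 in the adapted samples (adjusted p = 0.123), and TCF12 at 3.72, 3.63 and 3.62 against 3.54, 3.46 and 3.50 (adjusted p = 0.0662). TCF4 was at 0.21 or lower. Over these 6 lists, 40 of 75 other pathway genes were tested, 13 rose, 6 fell and 21 were not called. The share called was 47.5% of the 40, beside 56.9% of all rows tested, of which 30.7% were higher and 26.2% lower. The median log2 fold change of the 40 was 0.034, beside 0.028 for all rows.

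**Figure D4:**
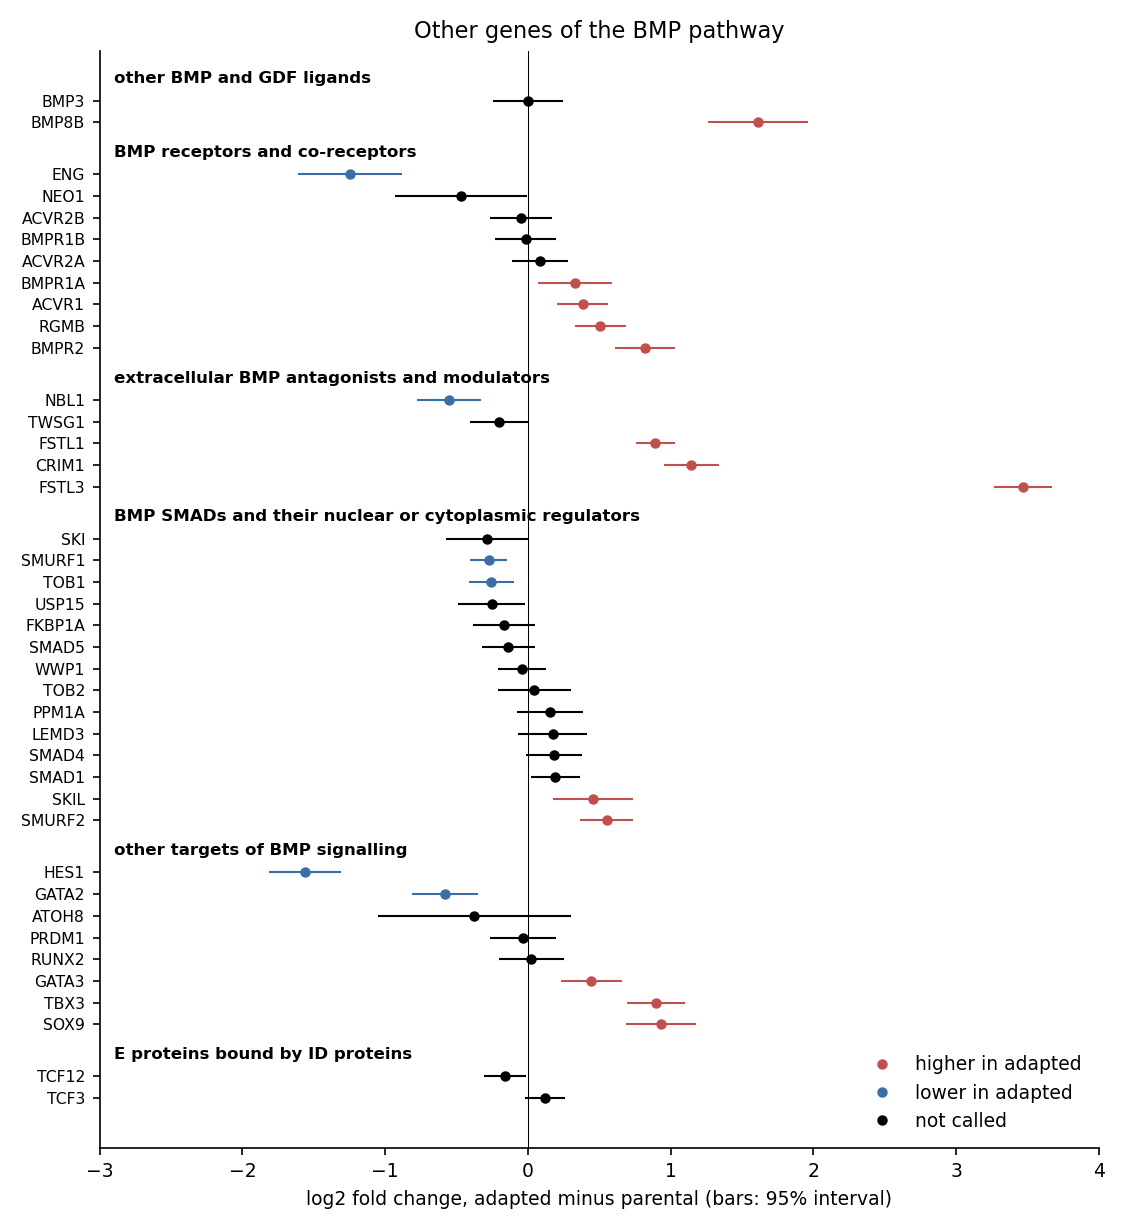
Log2 fold change (x axis) with its 95% interval for the 40 other pathway genes tested, grouped by role and coloured as higher (red), lower (blue) or not called (black). FSTL3 stands at 3.47, ENG at -1.24 and HES1 at -1.56, and among the SMADs and their regulators SMURF2, at 0.55, lies farthest from 0.

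The profiles most like that of ID1, by the root mean square difference of log2 values over the 6 samples after the parental mean of each gene was subtracted, were those of NR4A1 (0.101), NAB2 (0.108) and C6orf58 (0.113). Those most like BMP2, which had the largest absolute change of the 10 genes on the log2(FPKM + 1) scale (BMP4 had the larger ratio of mean FPKM), were TGM2 (0.043), TRIM15 (0.070) and KIF18B (0.083). NAB2 went from 3.87 ± 0.035 to 2.59 ± 0.12 and TGM2 from 6.73 ± 0.043 to 4.65 ± 0.26 on the log2 scale (SD, n = 3 each). NR4A1 and C6orf58 were low, at 1.84 and 2.04 in parental and 0.58 and 0.79 in adapted cells. Both passed the filter through their parental values. In mean FPKM, NR4A1 fell 5.03-fold, C6orf58 4.24-fold and NAB2 2.70-fold, against 2.41-fold for ID1. The likeness of the low genes to ID1 thus holds on the log2(FPKM + 1) scale only. TRIM15 was low in adapted cells, at 1.26. In mean FPKM, TRIM15 was 6.34-fold, TGM2 4.31-fold and KIF18B 4.68-fold lower in adapted cells, against 4.91-fold for BMP2.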

How the data were processed

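The authors deposited 1 table of log2 values for 3 parental and 3 adapted samples, matched by group and replicate number. The submitters' processing notes list STAR, Bowtie2 2.1.0, edgeR and hg38 without roles, and the authors' methods name DESeq2. That the values are the log2 of a number plus 1 was inferred from a grid. Raising 2 to a value and subtracting 1 gives a 6-decimal grid in all but 147 rows. None of these rows is among the 106 listed genes, and 144 of them return to the grid when 1 constant is subtracted from a group. The grid does not give the unit of that number, which was taken as FPKM. Rows with a mean of at least 1 (12656 of 27216) were tested with limma 3.58.1 in R 4.3.3 (lmFit, eBayes with trend), unpaired, with Benjamini-Hochberg adjustment over all rows tested and a threshold of 0.05, after tests on simulated data. Since the authors' DESeq2 test needs counts, limma stood in for it. FPKM ratios were computed in Python 3.11.15. Genes, lists and tests were chosen with earlier results of these data known. Named genes were the 10 genes, up to 3 that rose and 3 that fell most past the threshold without overlap per list, those needed to say which were not detected, and the 3 most alike profiles. Others are values of their list or were chosen after their values were seen. Alternatives covered scaling, pseudocount, filters, eBayes options, a replicate block, thresholds and leaving out each sample.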

Additional observations from a re-analysis of the deposited data

How the results depend on the processing

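ID1, BMP2, BMP4, SMAD7 and BAMBI kept an adjusted p under 0.05 and their direction in every alternative fit that gave them a value, with log2 fold changes of -1.44 to -1.15, -2.30 to -1.94, 1.5 to 2.22, 0.54 to 0.72 and -1.23 to -0.86. With a mean of at least 3 as the filter, 4532 rows, 3 of the 10 genes and 11 other pathway genes passed the threshold, fewer rows being tested, and ID4, BMP4, SMAD6 and SMAD7 had no value. With a change of 1 or more on the log2 scale, in either direction, also asked for, 1328 rows and 5 other pathway genes passed. ID2, ID4 and SMAD6, which were not called in any fit, turned sign in some. ID2 was at -0.013 with median centring, SMAD6 was at -0.0097 with quantile normalization, and leaving out each sample gave -0.18 to 0.12 for ID2, -0.17 to 0.042 for ID4, and -0.061 to 0.089 for SMAD6. ID3 stayed below 0, at -0.30 to -0.064, and was called at the lowest of these values (adjusted p = 0.0236, without adapted replicate 3). SMAD9 had a log2 fold change of 0.85 with a pseudocount of 0.1, which shows the weight of the added 1 in low genes. Leaving out each sample gave 5763 to 8370 called rows, 5 or 6 of the 10 genes and 16 to 25 other pathway genes. Same-numbered samples did not deviate together (correlations of -0.051, -0.031 and -0.02 across rows), and no sample correlated best with its own number. No pairing by number was therefore seen, but this cannot tell whether same-numbered samples shared a culture or batch. The replicate block gave 6761 called rows, 5 of the 10 genes and 18 other pathway genes. Scaling without mitochondrially encoded genes shifted the median over all rows tested, 0.028, to 0.070. The depth of the samples is unknown, which leaves the counting error of low genes such as SMAD9, BMP4 and NOG unknown.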
